A study of Mus musculus with 10 samples.

Results

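The genes described here encode the proteins of the mitochondrial ribosome, followed in mouse embryonic fibroblasts (MEFs) by RNA-seq and by PAR-CLIP of a pair of cold-induced RNA-binding proteins, Cirbp and Rbm3. They were taken as every gene symbol made of Mrpl or Mrps and a number whose mean was at least 1 FPKM over 8 RNA-seq libraries. FPKM divides the fragments of a transcript by its length and by the depth of the library, so levels of different genes can be compared per length. Of 76 such symbols among 22552 genes listed, 74 met the minimum, 46 named for the large subunit and 28 for the small subunit. The 2 left out were Mrps33, at a mean of 0.71 FPKM, and Mrpl23, at 0.050 FPKM. The members just inside the minimum were Mrps36, at 1.98 FPKM, and Mrpl41, at 4.26 FPKM.

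Polyadenylated RNA was sequenced from 4 groups of 2 libraries each: mock-transfected MEFs kept at 32 °C, MEFs with siRNA against Cirbp at 37 °C, MEFs with siRNA against Rbm3 at 37 °C, and mock-transfected MEFs at 37 °C. The labels number the siRNA libraries 1 and 2 and do not say whether the numbers stand for separate siRNAs. PAR-CLIP has 1 library for each protein, from MEF lines that stably express it with a FLAG tag and were given 100 µM 4-thiouridine for 16 h before crosslinking. These lines show sites of a tagged, added protein. No group with a control siRNA is used here, so the effect of a target and of siRNA as such cannot be told apart. All comparisons with mock-transfected cells at 37 °C share the same 2 control libraries. The labels do not say whether the 2 libraries of a group are separate cultures, and the p-values cover the spread between those libraries, which may be technical.

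The mitochondrial ribosome translates the few mRNAs that the mitochondrial genome encodes, all of them for subunits of the respiratory chain and ATP synthase. Its RNA comes from mitochondrial DNA, while all of its proteins are encoded in the nucleus, made in the cytosol and imported. Some of these proteins descend from bacterial ribosomal proteins and others are found only in mitochondria.

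Depth was 25100000 to 28200000 mapped fragments per library, rounded, and a member had between 18 and 2968 reads in a library. Of 14 fibroblast markers 13 were measured, with summed levels of 11300 to 14000 FPKM at 32 °C, 6250 to 7160 in siCirbp, 9960 to 12100 in the libraries labelled siRbm3 and 9860 to 9920 in mock cells at 37 °C. The fibroblast surface marker Thy1 was listed at 0 in all 8 libraries. Of 5 macrophage markers 4 had a mean below 1 FPKM and Emr1 was listed at 0, with sums of 17.5 to 21.3 FPKM at 32 °C, 3.61 to 8.04 in siCirbp, 7.62 to 15.8 in the libraries labelled siRbm3 and 10.1 to 10.4 in mock cells at 37 °C. All markers listed for epithelium, endothelium, adipocytes and neural cells, and 3 of 4 for muscle, with Myod1 at 0, had means below 1 FPKM. The part of these marker levels in the results was not tested. Rbm3 stood at 3.05 and 1.16 FPKM in the libraries labelled siRbm3, against 1.85 and 2.21 FPKM in mock cells at 37 °C, so replicate 1 goes against its label. The wording "labelled siRbm3" is kept for that reason. In siCirbp Rbm3 stood at 5.54 and 7.55 FPKM, above all other libraries, and at 32 °C at 3.64 and 3.20 FPKM. Cirbp stood at 34.5 and 37.2 FPKM at 32 °C, 10.8 and 6.07 FPKM in siCirbp, and 13.8 and 23.8 FPKM in the libraries labelled siRbm3, against 15.9 and 17.1 FPKM in mock cells at 37 °C. The siCirbp libraries thus differ from the others in the mRNA of both proteins, and the part of either in the results cannot be told apart.

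Many of these genes start back to back with another gene, and the bases between such starts are shown first because the results below compare the partners. RefSeq promoter windows of GRCm38.p6, each from 250 bases before to 50 bases after a start, were found for 65 of the 74 members. Of these, 25 (38.5%) had the start of a gene on the other strand within 1000 bases upstream. The same held for 15.8% of 8634 tested genes with such a window and for 18.3% of 3362 genes of like transcript length. In the lines below each stretch runs 5′ to 3′ along the strand of the first gene named, and capitals mark the letters CCAAT or CCGGAAG on either strand.
Mrpl46 and Mrps11, chr7:78783090-78783130, minus strand: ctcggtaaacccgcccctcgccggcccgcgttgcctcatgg
Mrps12 and Sars2, chr7:28741822-28741967, minus strand: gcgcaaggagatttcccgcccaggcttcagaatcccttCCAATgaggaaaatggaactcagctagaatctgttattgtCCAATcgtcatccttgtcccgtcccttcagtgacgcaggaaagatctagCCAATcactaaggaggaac
Mrpl43 and Peo1, chr19:45006443-45006557, minus strand: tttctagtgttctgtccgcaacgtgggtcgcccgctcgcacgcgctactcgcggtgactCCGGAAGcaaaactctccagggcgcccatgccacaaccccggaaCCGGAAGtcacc
Mrpl27 and Eme1, chr11:94653744-94653790, plus strand: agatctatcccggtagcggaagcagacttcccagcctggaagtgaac
Mrps18c and Helq, chr5:100798601-100798758, plus strand: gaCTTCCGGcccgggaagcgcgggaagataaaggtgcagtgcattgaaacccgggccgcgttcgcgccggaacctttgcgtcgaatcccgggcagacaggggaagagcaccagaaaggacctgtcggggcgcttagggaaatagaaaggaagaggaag
The first stretch is the whole space of 41 bases between a large subunit gene and a small subunit gene. The last belongs to Mrps18c, which had the largest rise at 32 °C.

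The motifs of ETS factors, YY1 and NRF1, which are known from promoters of nuclear genes for mitochondrial proteins, and the general CCAAT and TATA motifs were searched on both strands of the windows. The ETS core CCGGAAG was found in 22 of 65 members (33.8%), in 20.1% of all 8634 tested genes and in 22.7% of the like-length genes. The YY1 letters AAGATGGC were found in 12 members (18.5%), in 5.32% of tested genes and in 5.18% of like-length genes. The NRF1 motif was found in 3 members (4.62%) and 2.29% of tested genes. CCAAT was found in 27 members (41.5%) and 39.6% of tested genes, and TATAAA in 4 members (6.15%) and 6.50% of tested genes. In 0 members did matches of 2 of these motifs share bases. A match is a description of letters only.

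Of the 12 members with the YY1 letters, 8 had them between the start and base 50, each time read as AAGATGGC along the gene. The 30 bases around 6 of these matches are shown with the letters in capitals and the position of the first capital counted from the start.
Mrps18a, chr17:46111004-46111033, plus strand, position 12: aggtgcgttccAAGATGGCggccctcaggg
Mrps27, chr13:99344789-99344818, plus strand, position 15: tggtgcgctccAAGATGGCggctcccatgg
Mrpl49, chr19:6057721-6057750, minus strand, position 17: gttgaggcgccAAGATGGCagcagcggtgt
Mrps7, chr11:115604147-115604176, plus strand, position 19: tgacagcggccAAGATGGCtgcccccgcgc
Mrpl37, chr4:107066822-107066851, minus strand, position 27: ctgcacgggcaAAGATGGCggcgtccaggt
Mrpl42, chr10:95501904-95501933, minus strand, position 28: cagattgaagcAAGATGGCgagcgcgcggt
The other 4 had them before the start, among them Mrpl36 at position -30 and Mrps11 at position -107, both read as GCCATCTT.

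The members were expressed at moderate levels that differed widely among themselves. Their means over 8 libraries had a median of 27.1 FPKM, against 13.4 FPKM over all 10901 genes tested, and ran from 1.98 to 208 FPKM, a ratio of 105. Between 10 and 100 FPKM lay 60 of the 74. The median was 25.5 FPKM for the large subunit and 28.1 FPKM for the small subunit.

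Mrpl33, a small homolog of a bacterial large subunit protein, had the highest level in all groups, with 304 and 342 FPKM at 32 °C, 191 and 155 FPKM in siCirbp, 149 and 204 FPKM in the libraries labelled siRbm3, and 164 and 153 FPKM in mock cells at 37 °C. The levels of the 37 °C groups overlapped, and both 32 °C libraries lay above all others. Mrpl13, Mrpl14, Mrps6 and Mrpl20 followed, with means of 96.9, 88.2, 74.0 and 68.3 FPKM. The means of Mrpl13 and Mrpl14 cannot be put in order beyond their spread, since Mrpl14 ran from 64.3 FPKM at 32 °C to 134 FPKM in the libraries labelled siRbm3. At the low end stood Mrps25 (5.65 FPKM), Mrpl19 (4.96 FPKM), Mrpl48 (4.72 FPKM), Mrpl41 (4.26 FPKM) and Mrps36 (1.98 FPKM). Mrps36 is known by its symbol as a ribosomal protein, but its product is now known as a subunit of the 2-oxoglutarate dehydrogenase complex.

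The transcripts are short. Their lengths, each a mean over a gene's transcripts weighted by FPKM, had a median of 1037 nt, against 2762 nt over all genes tested, and ran from 407 to 6712 nt. Fold changes differed with transcript length in these libraries, so 4164 tested genes that are no members and lie within the 10th to 90th percentile of the members' lengths (628 to 2429 nt) are set beside them and are called like-length genes.

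In the loci of the files, 9 of the 74 members (12.2%) overlapped another listed gene, against 17.4% of all genes tested. Among them Mrpl41 shares 1002 nt with Wdr85, Mrpl49 shares 89 nt with Syvn1, and Mrps6 shares 29138 nt of its span with Slc5a3. Strand is not stated for these libraries, so reads in shared stretches cannot be assigned with certainty.

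**Figure D1:**
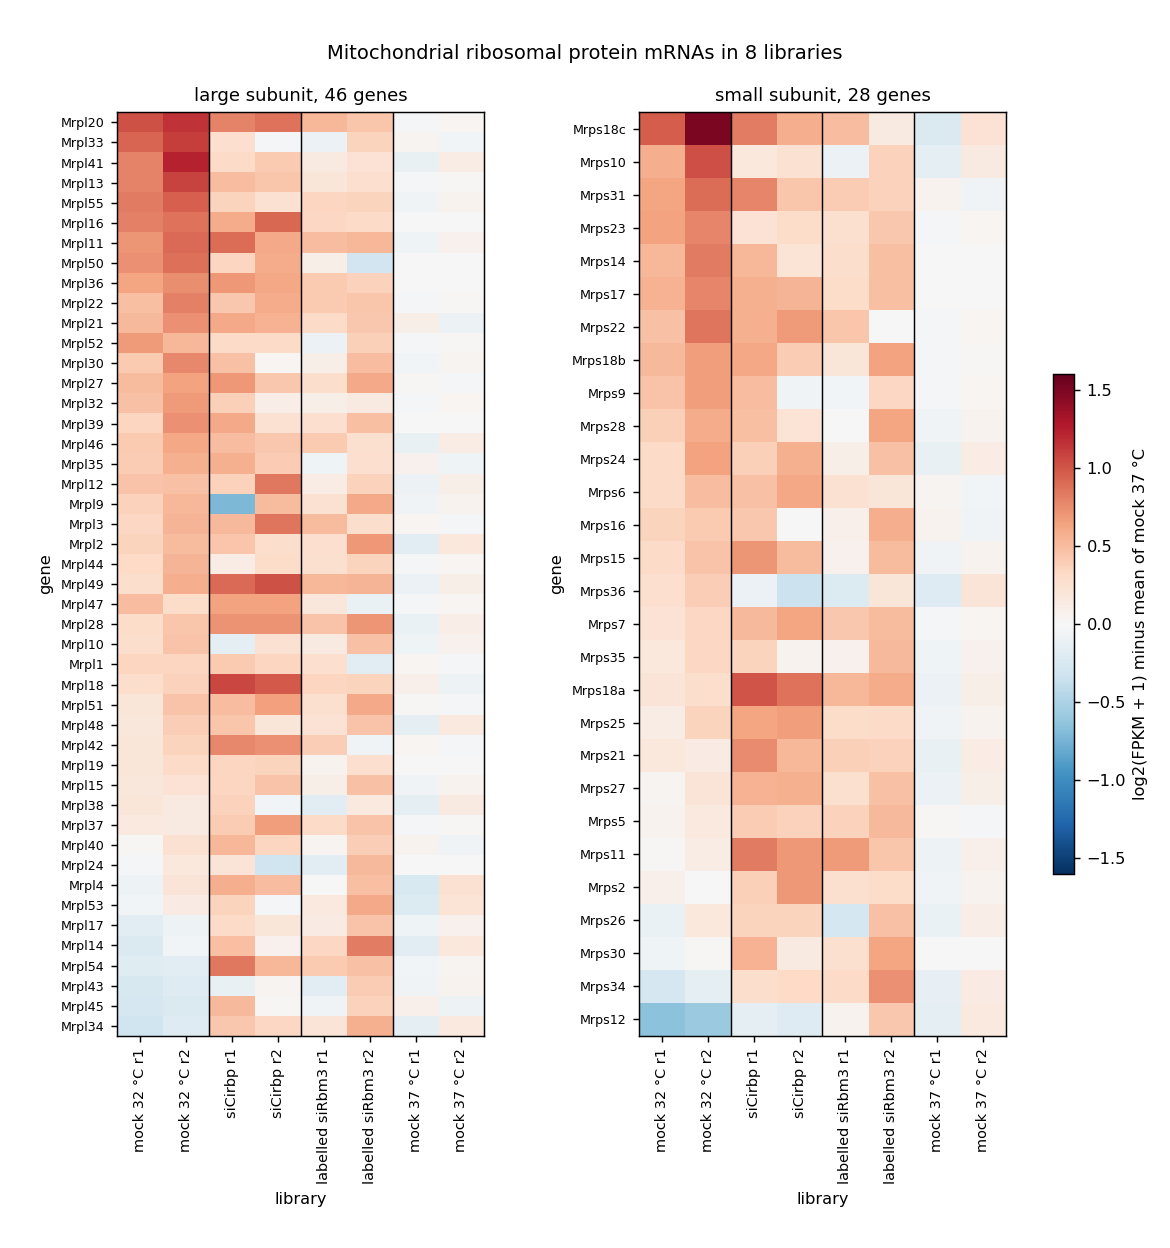
Each row is a member and each column a library, with the colour giving log2(FPKM + 1) minus the mean of the mock libraries at 37 °C. Rows are sorted by the log2 fold change at 32 °C, so the order of rows is no finding. The mock libraries at 37 °C are pale, most rows are red in the other groups, and Mrps12 at the foot of the small subunit panel is blue at 32 °C.

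Across the 4 groups no member had its highest mean in mock cells at 37 °C. The highest mean was at 32 °C for 34 of 74 members (45.9%), in siCirbp for 27 (36.5%) and in the libraries labelled siRbm3 for 13 (17.6%). Over all genes tested the shares were 33.0% at 32 °C, 25.9% in siCirbp, 29.1% in the libraries labelled siRbm3 and 12.0% in mock cells at 37 °C. Over like-length genes they were 40.1% at 32 °C, 28.3% in siCirbp, 25.8% in the libraries labelled siRbm3 and 5.79% in mock cells at 37 °C. Mock cells at 37 °C had the lowest mean for 61 members (82.4%), against 26.3% of all genes tested and 40.1% of like-length genes. The summed level of the 74 members was 2544 and 2849 FPKM at 32 °C, 2749 and 2591 FPKM in siCirbp, 2263 and 2697 FPKM in the libraries labelled siRbm3, and 1910 and 2041 FPKM in mock cells at 37 °C. The sums of the 6 other libraries all lay above both sums of mock cells at 37 °C. In such bulk RNA fewer cells of a type and less RNA per cell cannot be told apart.

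The first comparison sets mild cold against normal culture temperature in mock-transfected cells. At 32 °C 23 members rose and 1, Mrps12, fell. The largest rises past the threshold were those of Mrps18c, Mrpl20, Mrpl33 and Mrpl41, by 1.01 to 1.24 on the log2 scale. The test was limma on log2(FPKM + 1), two-sided, with Benjamini-Hochberg adjustment over all 10901 genes and a threshold of 0.05, and fold changes on that scale understate those of low genes. The 24 calls are 32.4% of the members, against 32.8% of all genes tested, so the share called is that of the background. By direction, 31.1% of members were higher, against 13.0% of all genes and 20.3% of like-length genes, and 1.35% were lower, against 19.8% and 10.9%.

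The median log2 fold change of the 74 members at 32 °C was 0.39, against -0.02 over all genes tested and 0.19 over like-length genes, and it was 0.17 with the trend over transcript length removed. The fold change was positive for 65 members. In 56 members (75.7%) both 32 °C libraries lay above both mock libraries at 37 °C, against 41.0% of all genes and 52.4% of like-length genes, and in 7 both lay below, against 43.8% of all genes and 29.4% of like-length genes. Relative to the mean of the mock libraries at 37 °C, the members' median was 0.31 and 0.45 in the 32 °C libraries, against -0.04 and 0.04 in the mock libraries at 37 °C themselves.

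Mrpl20, a homolog of a bacterial protein needed for early assembly of the large subunit, had 88.0 and 96.8 FPKM at 32 °C, against 41.9 and 43.8 FPKM in mock cells at 37 °C. The groups did not overlap (log2 fold change 1.09, SE 0.13, n = 2 per group, limma adjusted p = 0.0029). Mrpl33 had 304 and 342 FPKM at 32 °C, against 164 and 153 FPKM at 37 °C (log2 fold change 1.02, SE 0.20, limma adjusted p = 0.0100). Its level at 32 °C thus stood above that of every other member in any library. Mrpl13, whose bacterial homolog is an early assembly protein, had 123 and 150 FPKM at 32 °C, against 69.8 and 71.3 FPKM at 37 °C (0.93, SE 0.15, limma adjusted p = 0.0057).

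Mrpl16, whose bacterial homolog lies near the site of peptide bond formation, had 37.3 and 39.0 FPKM at 32 °C, against 21.1 and 20.9 FPKM at 37 °C. Its log2 fold change was 0.83 (SE 0.15, limma adjusted p = 0.0083). Mrpl36, a small homolog of a bacterial zinc-binding protein, had 18.2 and 19.8 FPKM at 32 °C, against 11.42 and 11.45 FPKM at 37 °C (0.68, SE 0.13, limma adjusted p = 0.0096). Mrpl20, Mrpl16 and Mrpl36 also passed the threshold in siCirbp, in a comparison with the same 2 control libraries, and their 150 bases before the start are shown for that reason. All are on the plus strand, and capitals mark the YY1 letters.
Mrpl20, chr4:155802728-155802877: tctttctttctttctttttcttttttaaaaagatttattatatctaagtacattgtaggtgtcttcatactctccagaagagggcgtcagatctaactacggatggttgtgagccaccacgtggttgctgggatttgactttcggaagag
Mrpl16, chr19:11770265-11770414: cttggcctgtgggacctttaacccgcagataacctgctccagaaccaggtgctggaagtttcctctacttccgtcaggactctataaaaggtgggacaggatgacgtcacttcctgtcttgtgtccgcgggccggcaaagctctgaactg
Mrpl36, chr13:73330859-73331008: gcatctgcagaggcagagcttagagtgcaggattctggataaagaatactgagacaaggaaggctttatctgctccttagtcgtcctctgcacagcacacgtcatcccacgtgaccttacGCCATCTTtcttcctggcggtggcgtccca

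Among proteins found only in mitochondria, Mrpl55 had 22.6 and 24.8 FPKM at 32 °C, against 11.7 and 12.8 FPKM in mock cells at 37 °C (log2 fold change 0.89, limma adjusted p = 0.0052). Mrpl41 had 5.68 and 8.03 FPKM at 32 °C, against 2.53 and 3.18 FPKM at 37 °C (1.01, limma adjusted p = 0.0095). Mrps23 had 34.5 and 38.0 FPKM at 32 °C, against 21.2 and 22.2 FPKM at 37 °C (0.71, limma adjusted p = 0.0100). In all of these both 32 °C libraries lay above both mock libraries at 37 °C. The 12 members that rose and are not described elsewhere by their FPKM at 32 °C lay between 0.57 and 0.81 on the log2 scale.

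Mrps12 encodes the protein of the decoding centre, where the tRNA is matched to the mRNA. It had 17.6 and 18.4 FPKM at 32 °C, against 25.2 and 31.6 FPKM in mock cells at 37 °C, without overlap. It fell by 0.62 on the log2 scale (SE 0.18, limma adjusted p = 0.0333). With median centring of the libraries, which moved the median of all genes by 0.125, its value was -0.50 and did not pass (limma adjusted p = 0.0552), and with no filter on low genes it did not pass either (limma adjusted p = 0.0531). The 6 other members that lay below in both libraries and did not pass were Mrpl34 (-0.26), Mrpl45 (-0.25), Mrpl43 (-0.23), Mrps34 (-0.21), Mrpl54 (-0.19) and Mrpl17 (-0.12), named here after their values were seen. Mrpl45, which docks the ribosome on the inner membrane, had 28.5 and 29.3 FPKM at 32 °C, against 36.6 and 32.6 FPKM at 37 °C (limma adjusted p = 0.398).

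By role, the proteins of the stalk that recruits translation factors had 1 of 3 members higher, Mrpl11, with a median of 0.46. Mrpl12, the stalk protein itself, had 71.7 and 72.4 FPKM at 32 °C, against 48.8 and 55.5 FPKM at 37 °C, and did not pass (0.46, limma adjusted p = 0.102). Mrpl10, which anchors it, also did not pass (0.37, limma adjusted p = 0.170). Around the exit tunnel and the membrane dock 1 of 5 was higher (median 0.07), and in the central protuberance on top of the large subunit 2 of 6 were higher (median 0.31). Of 5 proteins at the mRNA entry and the decoding site of the small subunit 0 were higher and 1, Mrps12, was lower, with 2 of the 5 at an unadjusted p under 0.05 (median 0.11). Homologs of bacterial large subunit proteins had 10 of 28 higher (median 0.44). Homologs of bacterial small subunit proteins had 5 of 17 higher and 1 lower (median 0.40). Members outside both lists had 8 of 29 higher (median 0.28). Over all genes tested 13.0% were higher and 19.8% lower, and over like-length genes 20.3% and 10.9%. A limma unadjusted p under 0.05 was found for 45.6% of all genes. The lists by role are short, and differences between them were not tested. Mrps18a is counted among the members outside both homolog lists, so these are not all without a bacterial homolog.

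The paralogs Mrps18a, Mrps18b and Mrps18c, which descend from a single bacterial gene, had different values. Mrps18c had 35.3 and 51.5 FPKM at 32 °C, against 14.8 and 20.8 FPKM in mock cells at 37 °C (log2 fold change 1.24, SE 0.25, limma adjusted p = 0.0109). Mrps18b had 9.48 and 10.6 FPKM at 32 °C, against 6.22 and 6.41 FPKM at 37 °C (0.59, SE 0.19, limma adjusted p = 0.0466). Mrps18a had 34.7 and 36.6 FPKM at 32 °C, against 27.8 and 32.0 FPKM at 37 °C, and did not pass (0.25, SE 0.14, limma adjusted p = 0.206). The difference between the paralogs was not tested.

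Every call at 32 °C other than that of Mrpl20 was lost without mock 37 °C replicate 1, without mock 37 °C replicate 2 or without mock 32 °C replicate 2, and 5 calls stood without mock 32 °C replicate 1. With the trend over transcript length removed, Mrpl16 (0.57, limma adjusted p = 0.0586) and Mrpl36 (0.37, limma adjusted p = 0.0820) no longer passed. For Mrpl20 limma's adjusted p ran from 1.3e-05 to 0.0437 over all alternatives tried. With 2 libraries a group such fits leave a lone library in an arm, assumed to vary like those of the other groups.

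**Figure D2:**
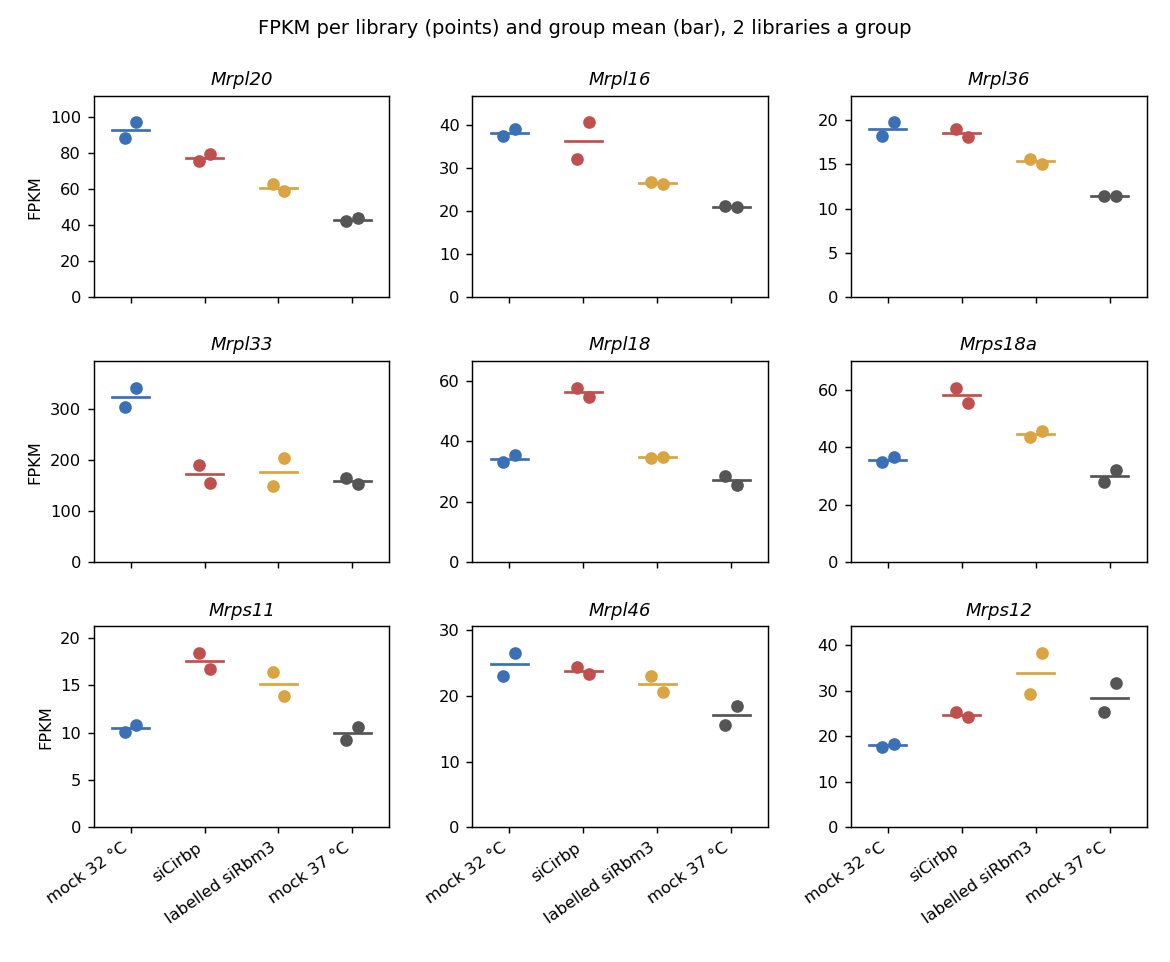
FPKM of 9 members by group, with a point for each library and a bar for the mean of 2 libraries; each vertical axis starts at 0. Mrpl20, Mrpl16, Mrpl36 and Mrpl33 stand highest at 32 °C or level with siCirbp, Mrpl18, Mrps18a and Mrps11 stand highest in siCirbp, and Mrps12 stands lowest at 32 °C.

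The second comparison asks what siRNA against Cirbp does to these mRNAs at normal temperature. In siCirbp 7 members rose and 0 fell: Mrpl18, Mrpl49, Mrps18a, Mrpl20, Mrps11, Mrpl16 and Mrpl36, by 0.66 to 1.02 on the log2 scale. These are 9.46% of the members, against 3.39% of all genes tested called in either direction and 2.77% called higher, and against 4.61% of like-length genes called higher. An unadjusted p under 0.05 was found for 39 of 74 members, against 24.2% of all genes. The median log2 fold change of the members was 0.45, against 0.08 over all genes tested and 0.18 over like-length genes. With the trend over transcript length removed it was 0.25. The fold change was positive for 69 members, and in 59 (79.7%) both siCirbp libraries lay above both mock libraries at 37 °C, against 38.5% of all genes and 47.6% of like-length genes. In 1, Mrps12, both lay below, against 21.9% and 13.7%.

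Mrpl18, a protein of the central protuberance whose bacterial homolog binds ribosomal RNA there, had 57.8 and 54.7 FPKM in siCirbp, against 28.7 and 25.6 FPKM in mock cells at 37 °C (log2 fold change 1.02, SE 0.13, n = 2 per group, limma adjusted p = 0.0228). It stood at 34.5 and 34.9 FPKM in the libraries labelled siRbm3 and at 33.2 and 35.3 FPKM at 32 °C, so both siCirbp libraries lay above all 6 others. Mrps18a had 60.7 and 55.2 FPKM in siCirbp, against 27.8 and 32.0 FPKM at 37 °C (0.93, SE 0.14, limma adjusted p = 0.0266). Despite its symbol, the product of Mrps18a sits in the large subunit of the mammalian ribosome.

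Mrpl49, found only in mitochondria, had 33.0 and 35.9 FPKM in siCirbp, against 16.0 and 18.3 FPKM in mock cells at 37 °C (0.97, SE 0.16, limma adjusted p = 0.0299). Mrpl20 had 75.2 and 79.3 FPKM in siCirbp, against 41.9 and 43.8 FPKM at 37 °C (0.83, SE 0.13, limma adjusted p = 0.0289). Mrpl36 had 19.1 and 18.1 FPKM in siCirbp, against 11.42 and 11.45 FPKM at 37 °C (0.66, SE 0.13, limma adjusted p = 0.0457). The siCirbp libraries lay above the mock libraries at 37 °C in each of these genes.

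Mrps11, whose bacterial homolog lies on the platform of the small subunit, had 18.5 and 16.7 FPKM in siCirbp, against 9.27 and 10.6 FPKM in mock cells at 37 °C (0.77, SE 0.15, limma adjusted p = 0.0462). At 32 °C it stood at 10.1 and 10.8 FPKM, close to its level in mock cells at 37 °C. Mrpl16 had 32.0 and 40.6 FPKM in siCirbp, against 21.1 and 20.9 FPKM at 37 °C (0.75, SE 0.15, limma adjusted p = 0.0462). The stalk protein gene Mrpl12 had 67.4 and 94.1 FPKM in siCirbp, against 48.8 and 55.5 FPKM at 37 °C, and did not pass (0.60, limma adjusted p = 0.114).

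By subunit, 5 of 46 large subunit members rose (median 0.43) and 2 of 28 small subunit members (median 0.49). By role, 1 of 6 members of the central protuberance rose, Mrpl18. Of the stalk, of the exit tunnel and of the mRNA entry 0 members passed in limma, with unadjusted p under 0.05 in 2 of 3, 2 of 5 and 3 of 5. Over all genes tested 2.77% were called higher and 24.2% had an unadjusted p under 0.05. Of like-length genes 4.61% were called higher.

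All 7 calls rest on few libraries. Leaving out any 1 of the 4 mock libraries, or siCirbp replicate 2, left 0 members called, while 26 members were called without replicate 1 or 2 of the siRbm3 label. With a replicate block 0 members were called, and also with the trend over transcript length removed, where limma's adjusted p for Mrpl18 was 0.0586. Shares of all genes called in these alternative fits are not given here.

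The third comparison asks which of these mRNAs differ after siRNA against Rbm3, and limma called 0 members in the libraries labelled siRbm3, as it called 0.0% of all genes. An unadjusted p under 0.05 was found for 24 of 74 members, against 13.3% of all genes. The median log2 fold change of the members was 0.32, against 0.12 over all genes and 0.21 over like-length genes, and 71 members were positive. It was 0.11 with the trend over transcript length removed and 0.22 with quantile normalization. In 50 members (67.6%) both libraries lay above both mock libraries at 37 °C, against 37.2% of all genes and 45.3% of like-length genes. In 0 both lay below, against 13.3% and 7.08%.

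The smallest p belonged to Mrps18a, with 43.4 and 45.5 FPKM in the libraries labelled siRbm3, against 27.8 and 32.0 FPKM in mock cells at 37 °C (log2 fold change 0.56). Mrpl28, a homolog of a bacterial large subunit protein, had 63.0 and 74.8 FPKM in the libraries labelled siRbm3, against 42.4 and 49.2 FPKM at 37 °C (0.58). Mrpl20 (0.49) and Mrps11 (0.56) followed, all 4 at a limma adjusted p of 0.350. On the negative side Mrpl50 had 19.4 and 14.4 FPKM in the libraries labelled siRbm3, against 17.9 and 18.2 FPKM at 37 °C (-0.10), and overlapped. Mrpl38, of the central protuberance, and Mrps36 were at -0.01 each. These last 3 turned positive when a single library was left out.

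The libraries labelled siRbm3 spread the most. Replicates of a group differed by a median absolute log2 difference over the members of 0.161 at 32 °C, 0.167 in siCirbp, 0.318 in the libraries labelled siRbm3 and 0.110 in mock cells at 37 °C. Over all genes tested it was 0.107 at 32 °C, 0.261 in siCirbp, 0.313 in the libraries labelled siRbm3 and 0.0879 in mock cells at 37 °C. Replicate 1 of the siRbm3 label was the higher one in 15 of 74 members, or 20.3%, against 41.1% of all genes. The 32 °C pair was more one-sided, with replicate 1 the higher one in 7 members, or 9.46%, against 33.8% of all genes. The members' median relative to mock cells at 37 °C was 0.25 in replicate 1 of the siRbm3 label and 0.45 in its replicate 2. In the libraries of that label Mrps26 had 21.6 and 37.0 FPKM and Mrpl42 had 26.0 and 18.7 FPKM. These were the largest differences there in either direction. In siCirbp the largest differences were those of Mrpl9, with 20.8 and 49.6 FPKM, and of Mrps9, with 37.3 and 25.3 FPKM.

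Between siCirbp and the libraries labelled siRbm3 limma called 0 members, against 0.0367% of all genes, 4 genes, with 0.0183% higher and 0.0183% lower. An unadjusted p under 0.05 was found for 9 of 74 members, against 15.2% of all genes. The median log2 difference, siCirbp minus siRbm3 label, was 0.15 for the members, against 0.00 over all genes and 0.01 over like-length genes, with 51 members positive. Both siCirbp libraries lay above both of the siRbm3 label in 33 members, against 20.8% of all genes and 22.9% of like-length genes, and below in 1, Mrps12, against 15.6% and 11.0%. Mrpl18, with 57.8 and 54.7 FPKM in siCirbp, against 34.5 and 34.9 FPKM in the libraries labelled siRbm3, had the smallest p (0.68, limma adjusted p = 0.221). Mrpl47, at the exit tunnel, had 22.1 and 22.0 FPKM in siCirbp, against 15.7 and 12.7 FPKM in the libraries labelled siRbm3 (0.61). Mrpl42 and Mrpl50, both found only in mitochondria, followed at 0.58 each. Mrps12 (-0.42), Mrpl9 (-0.53), Mrpl10 (-0.26) and Mrpl14 (-0.30) were on the negative side. Without replicate 1 of the siRbm3 label, which goes against that label, each of these named members kept its sign. That fit leaves a lone library in a group, and the share of all genes called in it is not given. Its calls are therefore not read.

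**Figure D3:**
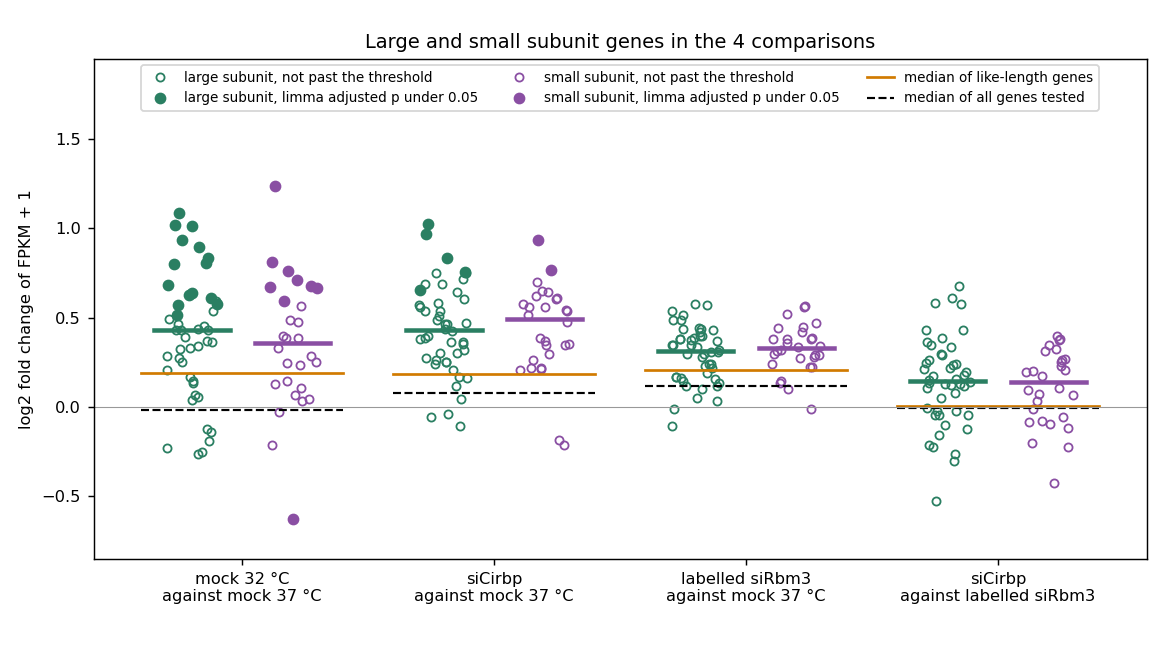
Log2 fold change of each member in the 4 comparisons, by subunit, with filled points past limma's adjusted threshold. Thick bars are medians of the members by subunit, orange lines medians of like-length genes and dashed lines medians of all genes tested. Both subunits have medians above the orange line in each comparison.

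The subunits were compared by their medians. The median of the large subunit minus that of the small subunit was 0.072 at 32 °C, -0.063 in siCirbp, -0.0145 in the libraries labelled siRbm3 and 0.0076 between the siRNA groups. The SD of this quantity between replicate libraries was 0.0324. Its value was 0.0477 and 0.0851 in the 32 °C libraries, -0.0515 and -0.0004 in the siCirbp libraries, -0.0175 and -0.0486 in the libraries labelled siRbm3, and 0.0293 and -0.0293 in mock cells at 37 °C. The summed FPKM of the large subunit over that of the small subunit was 2.36 and 2.30 at 32 °C, 2.04 and 2.08 in siCirbp, 2.07 and 2.13 in the libraries labelled siRbm3, and 2.19 and 2.15 in mock cells at 37 °C. Both 32 °C ratios lay above, and all 4 ratios of the siRNA libraries below, those of mock cells at 37 °C. The sums weight the members by level, and Mrpl33 alone had 304 and 342 FPKM at 32 °C, against 164 and 153 FPKM in mock cells at 37 °C. The higher ratios at 32 °C are therefore not read as a shift of the whole large subunit. The difference of medians at 32 °C depended on the processing. It was 0.167 with the trend over transcript length removed, 0.122 with only the highest transcript of each gene, and 0.0271 with Mrps18a and Mrps30, whose products sit in the large subunit, counted there. In siCirbp it was 0.0001 with the trend removed and 0.0203 with only the highest transcript.

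Members' fold changes were set beside those of other genes of the same transcript length. At 32 °C the members' median was 0.38 up to 600 nt (7 members) and 0.39 from 600 to 1000 nt (25 members), against 0.39 and 0.36 for other genes of these lengths. From 1000 to 1500 nt it was 0.43 (22 members), against 0.28, and from 1500 to 2500 nt it was 0.43 (13 members), against 0.09. Below 1000 nt the members thus had the median of other short genes, while from 1000 nt up they stood above. The 7 members over 2500 nt had medians of 0.42 and 0.24, against -0.07 and -0.34, and rest on 4 and 3 genes. With the trend over length removed, 20 members were called at 32 °C, 15 higher and 5 lower, of which 13 were among the 24, and the median was 0.17. The share of all genes called after that step is not given here, so these counts have no background beside them.

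In siCirbp the members stood above other genes in each length class. Their median was 0.30 up to 600 nt, 0.47 from 600 to 1000 nt, 0.45 from 1000 to 1500 nt and 0.47 from 1500 to 2500 nt, against 0.15, 0.22, 0.23 and 0.16. The classes over 2500 nt, of 4 and 3 members, had 0.44 and 0.35, against 0.09 and -0.06. In the libraries labelled siRbm3 the members had 0.33, 0.31, 0.33 and 0.38 in the first 4 classes, against 0.20, 0.26, 0.25 and 0.17. The members' median minus that of like-length genes was 0.196 at 32 °C, 0.266 in siCirbp, 0.115 in the libraries labelled siRbm3 and 0.141 between the siRNA groups, with an SD of 0.037 between replicate libraries. Set against the 1537 genes within the 25th to 75th percentile of the members' lengths (780 to 1527 nt), it was 0.0901 at 32 °C, 0.225 in siCirbp and 0.0721 in the libraries labelled siRbm3. The wider set holds many genes toward its upper bound, with 2654 other genes from 1500 to 2500 nt, where 13 members lie. These comparisons share their control libraries and are not independent.

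**Figure D4:**
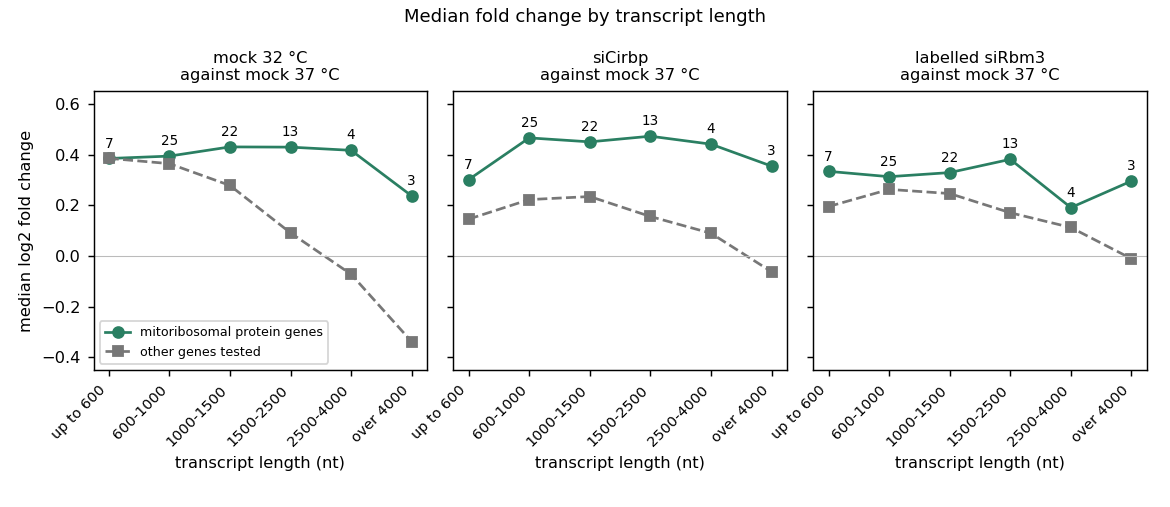
Median log2 fold change by class of transcript length for members (circles, with the number of members) and all other genes tested (squares). At 32 °C the lines meet at 0.38 to 0.39 up to 600 nt and part from 1000 nt up, while in siCirbp the members lie above in every class.

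Most members had a positive correlation with the other members across libraries. The Pearson correlation of a member with the mean of the other members over 8 libraries, which share group and library, had a median of 0.71. It was above 0.8 in 26 members and below 0 in 1, Mrps12, at -0.252. Among 8539 other genes of at least 5 FPKM, those most like the members' mean profile were Anapc7 (r = 0.986), a subunit of the anaphase-promoting complex, Exosc10 (0.984), a nuclease of the nuclear exosome, Emg1 (0.977), a methyltransferase of cytosolic ribosome assembly, Znhit3 (0.974) and the prefoldin subunit gene Pfdn2 (0.974). They were chosen as the highest of many. The median of such correlations over all or like-length genes is not given here, so the members' correlations are not read as particular to them.

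Partners that start back to back are named here after their values were seen. The 25 members form 24 pairs, since Mrpl46 and Mrps11 are partners of each other, and both genes were tested in 23. At 32 °C the fold changes had the same sign in 15 of 23 pairs, both genes passed limma in 2, the member alone in 8 and the partner alone in 5, where 32.8% of all genes tested passed. The median was 0.43 for the members, Mrpl46 standing for its pair, and 0.01 for the partners. Partners were not matched to the members by transcript length, with which fold changes differed in these libraries. The part of length in this gap was not tested. Mrpl27 and Eme1, whose product is a DNA repair nuclease subunit, start 48 nt apart and both passed, with Mrpl27 higher (0.58, limma adjusted p = 0.0380) and Eme1 lower (-1.12, limma adjusted p = 0.0233). In the other pair in which both passed, Mrpl32 (0.57) and the proteasome gene Psma2 (0.94) were both higher.

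Mrpl46 and Mrps11, 42 nt apart, encode a large and a small subunit protein. At 32 °C Mrpl46 had 23.0 and 26.6 FPKM, against 15.6 and 18.5 FPKM in mock cells at 37 °C (0.52, limma adjusted p = 0.0377), while Mrps11 did not pass (0.07, limma adjusted p = 0.756). In siCirbp Mrps11 passed (0.77, limma adjusted p = 0.0462) and Mrpl46 did not (0.47, limma adjusted p = 0.123). The difference between the partners was not tested. Mrps12 and Sars2, the gene of the mitochondrial seryl-tRNA synthetase, start 147 nt apart, and Sars2 was also negative at 32 °C without passing (-0.40, limma adjusted p = 0.140). Mrpl43 and the mitochondrial DNA helicase gene Peo1 both had negative values that did not pass (-0.23 and -0.26). Mrpl51 lies 614 nt from the condensin gene Ncapd2, which fell by 2.63 at 32 °C (limma adjusted p = 0.00099), while Mrpl51 was at 0.32 (limma adjusted p = 0.197). In siCirbp 17 of 23 pairs had the same sign, with medians of 0.47 for the members and 0.32 for the partners. The same sign was found in 22 of 23 pairs in the libraries labelled siRbm3 and in 19 of 23 between the siRNA groups. The share of same-sign pairs among other genes was not computed, so these counts are a description.

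**Figure D5:**
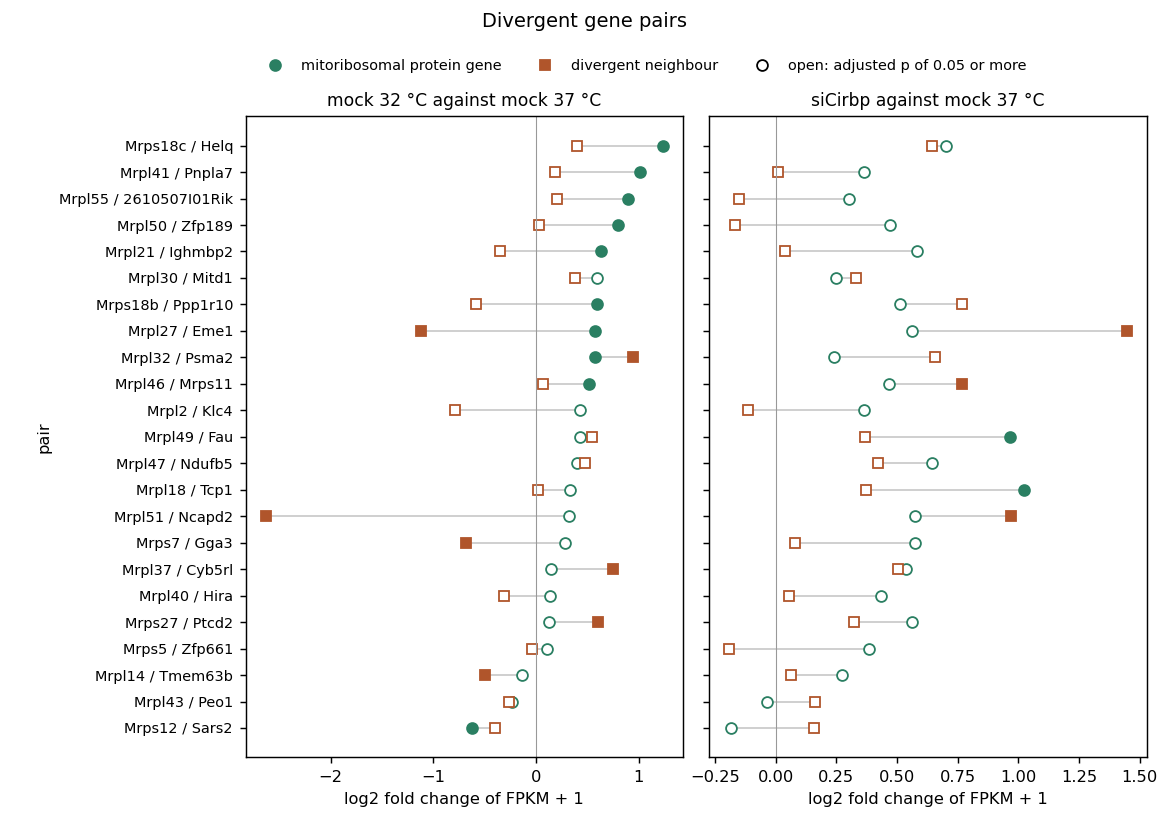
Log2 fold changes of 23 divergent pairs at 32 °C and in siCirbp, with members as circles, partners as squares and filled symbols past limma's adjusted threshold; axes differ between panels. At 32 °C most members lie right of 0 while partners lie on both sides, down to -2.63 for Ncapd2.

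Of the members 6 had more than 1 listed transcript. Mrpl1 has transcripts of 1579 and 3431 nt with the same left end in mm9, and the shorter carried 40.8% and 36.1% of its FPKM at 32 °C, 36.8% and 36.4% in siCirbp, 50.7% and 43.5% in the libraries labelled siRbm3, and 38.7% and 46.3% in mock cells at 37 °C. Both siCirbp shares lay below both of mock cells at 37 °C, the other groups overlapped with these, and no test was run. For Mrps10, whose transcripts of 1020 and 1017 nt are nearly alike, the first carried 84.8% in replicate 1 at 32 °C and 0.019% in replicate 2. Such splits between near-identical transcripts are not read further.

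Other genes of mitochondrial translation were taken from lists. Of 56 genes 53 were tested, and at 32 °C 12 rose (22.6%) and 4 fell (7.55%), with a median of 0.17. Over all genes tested 13.0% were higher and 19.8% lower (median -0.02), and over like-length genes 20.3% and 10.9% (median 0.19). In either direction 30.2% of the 53 were called, against 32.8% of all genes and 31.1% of like-length genes, so that share is near the background. Assembly factors and rRNA-modifying enzymes had 6 of 15 higher and 0 lower. Of the assembly and rRNA genes the pseudouridine synthase gene Trub2 had 22.0 and 24.8 FPKM at 32 °C, against 8.43 and 9.24 FPKM in mock cells at 37 °C (1.31, SE 0.16, limma adjusted p = 0.0029). Translation factors had 0 of 10 past the threshold in limma (median 0.06), with 2 of 10 at an unadjusted p under 0.05, against 45.6% of all genes. Among 17 aminoacyl-tRNA synthetases 3 rose, Ears2 (0.65), Iars2 (0.68) and Rars2 (0.88), and 2 fell, Aars2 (-0.72) and Cars2 (-0.56).

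Of 7 ribosomal proteins with other symbols, Aurkaip1 (0.66) and Ict1 (0.58), a release factor built into the large subunit, rose at 32 °C. Gadd45gip1, of the large subunit, had 18.5 and 16.5 FPKM at 32 °C, against 28.8 and 33.8 FPKM in mock cells at 37 °C. It fell by 0.80 on the log2 scale (limma adjusted p = 0.0151). The mitochondrial transcription factor gene Tfam rose (0.74) and the mitochondrial RNA polymerase gene Polrmt fell (-0.65). In siCirbp 0 of the 53 passed limma, against 3.39% of all genes tested, with an unadjusted p under 0.05 in 17, against 24.2%. Their median was 0.28. In the libraries labelled siRbm3 0 passed, against 0.0% of all genes tested, with an unadjusted p under 0.05 in 5, against 13.3%. The median there was 0.22.

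Nuclear-encoded genes of the respiratory chain had median fold changes close to those of the members, while the shares called differed in siCirbp. Of 77 tested, 24 rose (31.2%) and 2 fell (2.6%) at 32 °C (median 0.46), against 31.1% and 1.35% of members and 13.0% and 19.8% of all genes. In siCirbp 1 rose (1.3%, median 0.45), against 9.46% of members and 2.77% of all genes. In the libraries labelled siRbm3 0 passed limma (median 0.37), and 20 had an unadjusted p under 0.05, against 13.3% of all genes. Of 63 cytosolic ribosomal protein genes 5 rose (7.94%) and 2 fell (3.17%) at 32 °C (median 0.13), against 13.0% and 19.8% of all genes tested. In siCirbp 3 rose (4.76%) and 0 fell (median 0.18), against 2.77% and 0.624% of all genes tested. Cytosolic ribosomal protein genes have many processed copies in the genome, so their values are uncertain.

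PAR-CLIP maps where a protein was crosslinked to RNA, and few members held a site. Cirbp had a site in 1 of 74 members (1.35%), against 8.32% of all genes tested and 4.42% of like-length genes. Rbm3 had sites in 2 members (2.70%), against 8.79% of all genes tested and 4.85% of like-length genes. Among genes of 10 to 100 FPKM, Cirbp had sites in 1.67% of members and 5.25% of like-length genes, and Rbm3 in 3.33% and 5.64%. Sites were counted over the whole span of a gene, while like-length genes are matched by transcript length and not by span. With 1 library for each protein there is no replicate, and no test was made.

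The Cirbp site lay in Mrpl50 at chr4:49527145-49527165 of mm9, 21 bases on the strand of the gene, with a score of 301 on the authors' scale. Mrpl50 had 23.2 and 27.8 FPKM in siCirbp, against 17.9 and 18.2 FPKM in mock cells at 37 °C, and did not pass (0.47, limma adjusted p = 0.163). The Rbm3 sites lay in Mrps2 at chr2:28325275-28325323 (score 448) and in Mrps6 at chr16:92077216-92077239 (159), chr16:92077528-92077546 (233) and chr16:92078813-92078837 (748). Mrps2 had 19.2 and 19.8 FPKM in the libraries labelled siRbm3, against 15.3 and 16.7 FPKM in mock cells at 37 °C (0.27, limma adjusted p = 0.442). Mrps6 had 70.8 and 68.6 FPKM in the libraries labelled siRbm3, against 61.5 and 57.9 FPKM at 37 °C (0.22, limma adjusted p = 0.492). All 3 sites in Mrps6 lie in the stretch it shares with Slc5a3, so they cannot be assigned to Mrps6 with certainty.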

How the data were processed

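FPKM values were used as deposited by the authors, 1 for each of 28702 transcripts in each of 8 RNA-seq libraries. Per the submitters' processing notes, TopHat 1.1.2 and mm9 were used. The version of the quantifier, the annotation release and the handling of reads with several positions are not given in the sources used here. Coverage, deposited by the authors per transcript, gave the mapped fragments and reads per member, at 75 nt per read (76 nt per the labels). Reads so recovered for single-transcript genes under 100 reads were whole within 0.05 for 90.6% to 91.6%. Lengths of transcripts are those deposited by the authors. PAR-CLIP scores are the authors' own, on mm9 per the file headers, and their scale is not known here.

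Values of a gene's transcripts were added up, and the 10901 genes with a mean of at least 1 FPKM were fitted with limma 3.58.1 in R 4.3.3 on log2(FPKM + 1), using the trend and robust settings of eBayes. The model held a mean for each of 4 groups, which leaves 4 degrees of freedom. A PAR-CLIP site was given to a gene where it overlapped the span of its transcripts. Promoter windows are from RefSeq, GRCm38.p6, matched by accession, and their coordinates are not those of mm9. The fit was tested on simulated data. Members and lists were chosen with earlier results of these data known. Named are, per comparison, up to 8 members past the threshold with the smallest p in each direction, or, with fewer than 5 past it, the 4 smallest p in each direction, the 5 highest and 5 lowest by level, members with a PAR-CLIP site, extremes between siRNA libraries, a few structural proteins, and exceptions stated where they occur. Alternatives were another pseudocount, filter, scaling, transcript choice, length trend, model and sets of libraries.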

Additional observations from a re-analysis of the deposited data

How the results depend on the processing

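The count of members called at 32 °C, 24, was 37 with median centring, 51 with only the 2 groups in the fit, 20 with a replicate block, 20 with the length trend removed and 33 without both siRbm3 libraries (chosen after seeing the data), and 1 to 33 with 1 library left out. In siCirbp the 7 calls became 4 with median centring, the highest transcript only or no trend and robust options, 1 without filter, 0 with the length trend removed, only the 2 groups or a replicate block, 27 without both siRbm3 libraries, and 0 to 26 with 1 library left out. Counts for the siRbm3 label and between the siRNA groups, 0 each, ran to 0 to 2 and 0 to 6 with 1 library left out. Shares of all genes called under these alternatives are not given here, so the counts are not read as particular to the members. The replicate numbers do not pair libraries (correlations of deviations -0.153 to 0.0914), so the block is given as a count only. Members' medians moved to 0.17 (32 °C), 0.25 (siCirbp) and 0.11 (siRbm3 label) without the length trend, to 0.51 at 32 °C with median centring, and to 0.33 (siCirbp) and 0.22 (siRbm3 label) with quantile normalization. Median centring shifts the fold changes of all genes alike, so the members' distance from the median of all genes stays the same. With 1 library left out they ran from 0.31 to 0.45 at 32 °C, 0.41 to 0.48 in siCirbp, 0.25 to 0.45 for the siRbm3 label and 0.0304 to 0.25 between the siRNA groups. Large minus small subunit at 32 °C became 0.167 without the length trend, 0.122 with the highest transcript and 0.0271 by place in the ribosome. In siCirbp it became 0.0001 and 0.0203 under the first pair of these. Between the siRNA groups it became -0.0262 by place and -0.0329 at a minimum of 5 FPKM. With 1 library left out it ran from 0.0477 to 0.0993 at 32 °C, -0.0632 to -0.0004 in siCirbp, -0.0486 to -0.0145 for the siRbm3 label and -0.009 to 0.0996 between the siRNA groups. Members minus like-length genes became 0.149 at 32 °C without the length trend, 0.0901, 0.225 and 0.0721 with genes within the 25th to 75th percentile of length (32 °C, siCirbp, siRbm3 label), and 0.228 in siCirbp with quantile normalization. It ran from 0.213 to 0.309 in siCirbp and 0.0924 to 0.180 between the siRNA groups with 1 library left out. Signs turned with 1 library left out: for the siRbm3 label the values ran from -0.305 to 0.0966 in Mrpl50, -0.180 to 0.154 in Mrpl38 and -0.222 to 0.200 in Mrps36 (0.0607 with quantile normalization), and between the siRNA groups from -1.13 to 0.0786 in Mrpl9. The cause was not tested. PAR-CLIP counts were the same within 1 kb, at a score of at least 100 and on the strand of the gene. Depth limits the lowest members most: a member's lowest read count in a library was 18 at the least and 524 at the median.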
